A study of Homo sapiens with 12 samples.

Results

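H1299 is a human non-small cell lung cancer line that was derived from a lymph node metastasis. Its 3 libraries, of the 12 in the series, were set against the 9 libraries of the other lung cancer lines, H1703, CHAGO and CALU, to find the genes that hold H1299 apart. Each line gave 1 RNA-seq library in each of 3 states. These were parental cells, TICs (tumor-initiating cells, held able to seed a tumor) and TICs with PRKCI knocked down, PRKCI being the gene of protein kinase C iota. Libraries were assigned to lines and states by their labels, and no library was chosen by its values. The method of the knockdown, the way TICs were obtained and any control construct in the other states are details not given in the sources used here. The title of the series places the lines under squamous lung carcinoma.

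A cell line keeps a pattern of switched-on and switched-off genes from its tissue and from its own history in culture. Genes of the germ line, such as the MAGE and GAGE families on the X chromosome, are silent in most adult tissues, are held shut by DNA methylation, and are known for being switched on in lung cancers, which is why they are called cancer testis genes. Other line-specific genes mark the cell type of origin, and neighbouring genes can be high or low together along a chromosome.

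A gene was called when the H1299 libraries differed from the other 9 in edgeR's quasi-likelihood test with state as a block, at a Benjamini-Hochberg adjusted p under 0.05 over 14882 tested genes. It set H1299 apart when, in addition, the H1299 library lay above, or below, the libraries of all 3 other lines in each state. Of the tested genes 148 were called (0.994%), 104 higher in H1299 (0.699%) and 44 lower (0.296%), and all 148 also set H1299 apart in the 3 states. Without regard to the test, H1299 lay above the 3 other lines in each state at 1042 genes (7.0%) and below them at 727 (4.89%). One called gene has a symbol that a spreadsheet turned into a date and is not named. In 72 of the 148 the nearest other line was at least 2 log2 units away in every state. Against each line alone 130 were also called in the same direction, in contrasts that reuse the same libraries and add no independent support. Levels are given in CPM, counts per 1 M reads of TMM-scaled library size.

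These calls rest on few libraries. The 3 libraries of a line are not independent samples, and with the line as the unit (1 line against 3) an exact permutation test cannot give a p below 0.25, so the p-values describe these 12 libraries. Without the H1299 parental library 1 gene was called in edgeR, without the H1299 TIC library 1 and without the H1299 knockdown library 3. In the same order 0, 1 and 3 of these were among the 148. The count was 296 without H1703, 23 without CHAGO and 162 without CALU. Treating the line as a random block in limma voom gave 39 genes, all higher, of which 19 were among the 148, while DESeq2 gave 1557. With the values scaled to the mode of each library, limma gave 179 higher and 169 lower. No gene of the 148 was called under each of 13 other settings, and GAGE1 came closest with 12. Counted reads ranged from 21.2 to 36.1 M in the libraries of H1299 and H1703 and from 63.8 to 91.8 M in those of CHAGO and CALU, so H1703 is the line of like depth.

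Cancer testis genes led the genes higher in H1299. GAGE1, of a family of X-linked antigens of unknown function, stood at 91.6 CPM in parental cells, 100.8 CPM in TICs and 90.6 CPM in knockdown TICs. The other 9 libraries together held 1 GAGE1 read against 8715 in H1299, a ratio of 51051 after division by depth (95% exact binomial interval 9160 to 2016620, counting error only; edgeR adjusted p = 1.09e-05). GAGE2A had 27.8, 25.5 and 19.9 CPM in the same order and 4 reads in all elsewhere (edgeR adjusted p = 0.00342). MAGEA10, a MAGE antigen, was at 36.7, 40.4 and 29.9 CPM, with 1 read in the other lines (ratio 19606, interval 3516 to 774624; edgeR adjusted p = 0.000918). MAGEA12 was at 69.2, 54.6 and 81.0 CPM against 0 to 0.116 CPM in the other libraries, all of its 8 other reads being in H1703 (edgeR adjusted p = 0.0107). For each of these 4 genes the H1299 libraries lay close together and far above every other library. CSAG1, a neighbour of the MAGEA genes, was at 10.5, 35.3 and 9.17 CPM against 0 to 0.108 CPM (edgeR adjusted p = 0.0186). Near-identical copies within the GAGE and MAGEA families mean that the counting could have moved reads between members.

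Of 44 listed cancer testis genes, 20 had no read in any library and 12 were tested. In H1299, 4 of the 12 were called higher and 0 lower, against 0.699% and 0.296% of all tested genes. Of the 12, 7 lay above all 3 other lines in each state, against 7.0% of all tested genes. The 4 called genes, GAGE1, GAGE2A, MAGEA10 and MAGEA12, had at most 3 reads in any other library. They and CSAG1 were tested only because of their H1299 reads and could only come out higher. Their edgeR values and the count of 4 are a description. Any listed gene silent in the other lines could be tested only through H1299, so the 7 and the medians below are a description too. The median difference from the other lines was 8.29, 7.42 and 8.03 log2 units in parental cells, TICs and knockdown TICs, against −0.01, −0.01 and 0.00 over all tested genes. The fitted median of the same list was smaller, at 2.20 log2 units, against −0.23 over all tested genes. It was 1.61 without CALU, 2.55 without CHAGO and 14.19 without H1703. Not every member of the list was particular in this way. MAGEA1 was at 61.1, 27.7 and 34.7 CPM in H1299 and at 196, 145 and 153 CPM in H1703. MAGEA4 was at 665, 364 and 559 CPM in H1299 and at 400, 335 and 362 CPM in H1703, and both genes had 0 reads in CHAGO and CALU. PRAME, an antigen read by T cells, was at 261, 347 and 320 CPM in H1299, against 0 to 127 CPM elsewhere (edgeR adjusted p = 0.61). The median against H1703 alone was 1.03 log2 units, against 13.96 for CHAGO and 13.97 for CALU, where most of these genes had no read.

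Other genes called higher are described singly, since no list holds them together. TDRD12 and GTSF1 take part in the piRNA pathway, in which small RNAs silence transposons in the germ line. TDRD12 was at 354, 230 and 247 CPM in parental cells, TICs and knockdown TICs, and the other 9 libraries ranged from 0 to 1.65 CPM with a median of 0 (log2 fold change 14.22, standard error 1.59, edgeR adjusted p = 0.00501). GTSF1 was at 228, 122 and 147 CPM, and its 52 reads in the other lines all came from the CALU knockdown library, at 0.733 CPM (log2 fold change 13.97, standard error 1.75, edgeR adjusted p = 0.00814). For both genes the parental library was the highest of the 3, and every library of another line lay far below the lowest of H1299. LIN28B, an RNA-binding protein of embryonic cells that blocks the let-7 microRNAs, was at 290, 160 and 177 CPM against 0 to 1.44 CPM elsewhere (edgeR adjusted p = 0.0197). DNAH8, a dynein heavy chain of the sperm tail, was at 36.9, 63.4 and 80.6 CPM, with all 24 other reads in the CHAGO knockdown library (edgeR adjusted p = 0.00633). FAM9C, a testis-expressed X-linked gene, was at 43.1, 61.2 and 51.7 CPM, against 0 to 0.0792 CPM elsewhere (edgeR adjusted p = 0.00501). TDRD12, GTSF1, LIN28B, DNAH8 and FAM9C were tested only because of their H1299 reads and could only come out higher. Their edgeR values are a description.

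The promoters of 3 of the genes called higher and of S100A6, the calcium-binding protein gene that had no read in H1299 (described below), show how much they differ in the CG dinucleotides that DNA methylation acts on. The sequences are from RefSeq (GRCh38.p14), 250 bases before to 50 after the annotated start, on the strand of the gene, with each CG in capitals. They lie at chr12:54473553-54473852 (minus strand, GTSF1), chr19:32719517-32719816 (plus, TDRD12), chrX:152733507-152733806 (plus, MAGEA12) and chr1:153535942-153536241 (minus, S100A6).
GTSF1: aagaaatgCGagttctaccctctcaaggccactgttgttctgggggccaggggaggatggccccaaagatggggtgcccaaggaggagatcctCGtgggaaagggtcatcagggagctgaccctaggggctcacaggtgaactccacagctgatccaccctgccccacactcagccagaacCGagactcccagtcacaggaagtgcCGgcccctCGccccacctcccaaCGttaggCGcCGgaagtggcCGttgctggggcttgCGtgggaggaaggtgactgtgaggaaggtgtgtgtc
TDRD12: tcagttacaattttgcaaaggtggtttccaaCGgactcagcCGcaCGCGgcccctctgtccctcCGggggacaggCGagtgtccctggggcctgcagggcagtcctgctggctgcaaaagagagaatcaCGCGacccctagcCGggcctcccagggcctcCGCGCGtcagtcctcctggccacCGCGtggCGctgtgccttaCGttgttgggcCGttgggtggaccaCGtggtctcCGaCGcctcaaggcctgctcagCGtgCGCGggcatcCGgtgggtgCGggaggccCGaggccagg
MAGEA12: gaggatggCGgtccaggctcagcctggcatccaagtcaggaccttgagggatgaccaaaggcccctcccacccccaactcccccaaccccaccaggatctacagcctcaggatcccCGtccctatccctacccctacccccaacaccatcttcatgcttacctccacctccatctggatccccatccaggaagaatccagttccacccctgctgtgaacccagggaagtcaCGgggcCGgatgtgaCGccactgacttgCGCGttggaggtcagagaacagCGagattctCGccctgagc
S100A6: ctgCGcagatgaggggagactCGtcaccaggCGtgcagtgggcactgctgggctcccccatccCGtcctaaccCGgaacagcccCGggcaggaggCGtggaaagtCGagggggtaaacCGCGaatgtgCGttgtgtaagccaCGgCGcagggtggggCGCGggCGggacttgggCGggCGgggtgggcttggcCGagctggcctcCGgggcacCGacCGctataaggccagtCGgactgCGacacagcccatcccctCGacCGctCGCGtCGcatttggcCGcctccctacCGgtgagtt
The GTSF1 window holds 10 CG and that of MAGEA12 9, below the median of 14 over the 27305 promoters of the table, while TDRD12 holds 26 and S100A6 31. The 59 genes called higher that matched a promoter had a median of 22 CG and the 33 called lower a median of 30, against 26 for the 10028 tested genes that matched. CCGGAA, the core bound by ETS factors, or TTCCGG on the other strand was present in 23.7% of the promoters of genes called higher, 18.2% of those called lower, 28.2% of those tested and 17.6% of all promoters. GTSF1 and S100A6 each hold 1 such match and TDRD12 and MAGEA12 hold 0. Promoter methylation was not measured here.

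**Figure D1:**
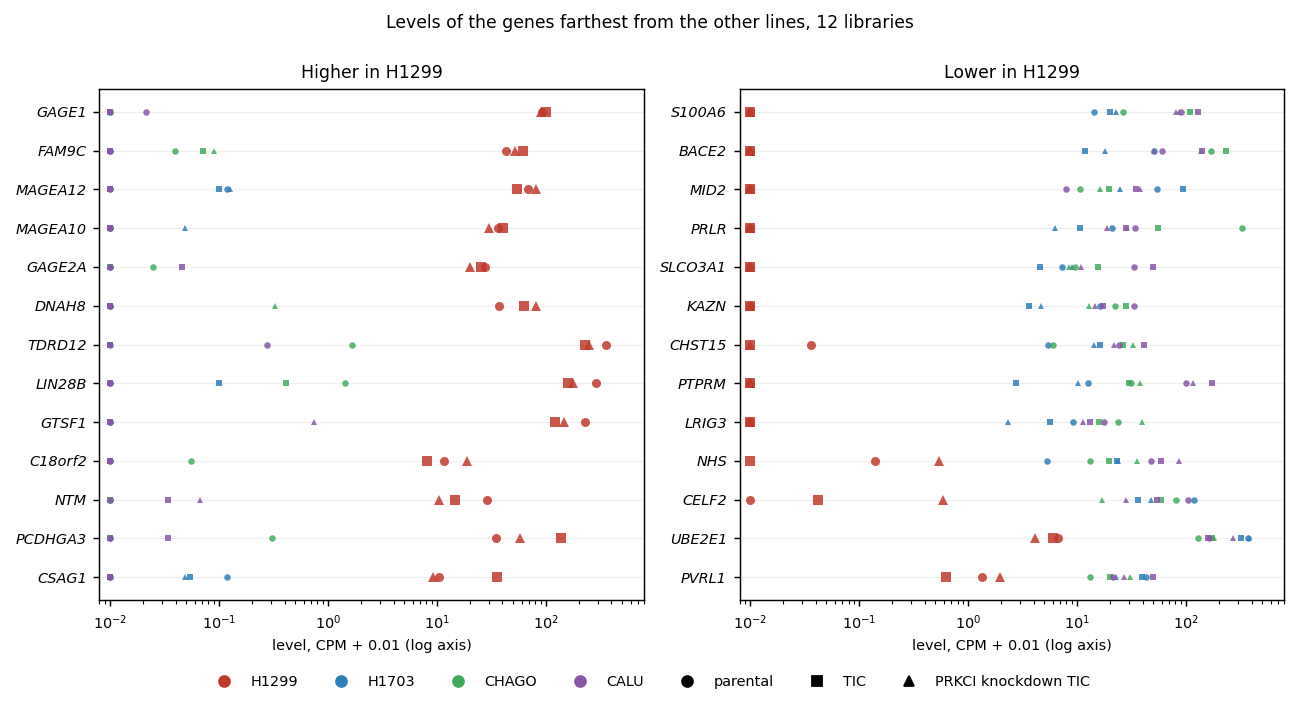
Level of 13 genes higher and 13 genes lower in H1299 among those with the largest smallest gap to another line, 1 point per library (CPM + 0.01, log axis; colour is the line, shape the state; a point at 0.01 is 0 reads). The 3 H1299 points lie to the right of all 9 others for each gene at left and to the left of them for each gene at right.

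A set of 33 genes was on only in H1299 by a count rule, with at least 1 CPM in each of its libraries and at most 3 reads in every other library. For 24 of them the other 9 libraries held 0 reads. The rule fixes that these genes are higher in H1299, so they are given as a description, with no test. GABRA4, a subunit of the GABA-A receptor of neurons, was at 11.004, 80.3 and 59.3 CPM, at least 762-fold higher than a mean floor of 3 reads per library. PASD1, a cancer testis antigen that represses the circadian clock, was at 44.4, 35.7 and 31.6 CPM, at least 565-fold higher. JAKMIP2, a coiled-coil protein of brain, was at 4.85, 30.6 and 62.1 CPM, and MYL4, the atrial light chain of myosin, at 6.64, 34.1 and 30.1 CPM. GABRA4, JAKMIP2 and MYL4 were lowest in the parental library, and PASD1 was highest there. Others of the 24, named after their values were seen, were NR1H4, the bile acid receptor, at 22.6, 16.8 and 8.55 CPM, and SYCE1, a protein of the meiotic synaptonemal complex, at 6.10, 9.81 and 4.41 CPM.

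Other called genes are described singly. NTM, an adhesion molecule of neurites, was at 28.7, 14.5 and 10.4 CPM against 0 to 0.0564 CPM (edgeR adjusted p = 0.00838). PCDHGA3, a clustered protocadherin, was at 34.7, 138 and 58.3 CPM against 0 to 0.299 CPM (edgeR adjusted p = 0.00838), and its shared exons make the origin of its reads uncertain. NTM was highest in parental cells and PCDHGA3 in TICs. Of 19 neuroendocrine and neuronal list genes tested 0 were called. In every state 4 lay above and 1 below the other lines, against 7.0% above and 4.89% below over all tested genes. BEX1, a brain-expressed X-linked protein, was the largest of the 4 at 54.0, 61.1 and 76.5 CPM against 0 to 0.582 CPM (edgeR adjusted p = 0.0718). Among genes named after their values were seen, ABCB1, the drug efflux pump P-glycoprotein, was at 9.06, 22.7 and 18.9 CPM against 0 to 0.367 CPM (edgeR adjusted p = 0.0427), and LRRK2, a kinase linked to Parkinson disease, at 40.3, 67.4 and 80.5 CPM against 0.289 to 8.78 CPM (edgeR adjusted p = 0.0176). NTM, PCDHGA3 and ABCB1 were tested only because of their H1299 reads and could only come out higher, so their edgeR values are a description.

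The converse count rule asks for at least 1 CPM in all 9 other libraries, so its number cannot be set against the 33. By this rule 14 genes were on in every other library and had at most 3 reads in each H1299 library, 13 of them with 0 reads. The rule fixes that these genes are lower in H1299, so their edgeR values are given as a description and add no support. Of the 13, edgeR called 10, DESeq2 13 and limma voom with line as a random block 0. A count of 0 in an H1299 library allows up to 0.0779 to 0.132 CPM at 3 reads. S100A6, a calcium-binding protein abundant in epithelial and mesenchymal cells, had 0 reads in the 3 H1299 libraries. In the other lines it ranged from 14.3 to 128 CPM with a median of 81.4, so it was at least 627-fold lower in H1299 against a mean floor of 3 reads per library (edgeR adjusted p = 0.00997). BACE2, a protease that cuts the amyloid precursor protein, also had 0 reads, against 11.9 to 231 CPM (at least 948-fold lower, edgeR adjusted p = 0.0172). PRLR, the prolactin receptor, had 0 reads against 6.32 to 326 CPM (at least 575-fold lower, edgeR adjusted p = 0.02). The receptor phosphatase PTPRM, at 2.73 to 172 CPM in the other lines, was at least 557-fold lower (edgeR adjusted p = 0.0447). MID2, a ubiquitin ligase of microtubules, had 0 reads against 7.98 to 93.4 CPM, and FOXF2, a forkhead factor of mesenchyme, 0 reads against 1.25 to 10.1 CPM (edgeR adjusted p = 0.0103 and 0.0156). SIK1, a salt-inducible kinase, and GRB10, an adaptor that restrains insulin receptor signalling, had 0 reads in H1299 but missed the threshold (edgeR adjusted p = 0.0903 and 0.0562), with 2.46 to 214 and 2.23 to 151 CPM in the other lines.

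UBE2E1, a ubiquitin-conjugating enzyme expressed in every other library at 129 to 380 CPM (median 180), was at 6.64, 5.95 and 4.14 CPM in H1299. The fitted difference was −5.40 log2 units (standard error 0.56, edgeR adjusted p = 0.00412), −5.98 against H1703, −4.83 against CHAGO and −5.11 against CALU. Its edgeR adjusted p was 0.0861, 0.12 and 0.0884 without the H1299 parental, TIC and knockdown library, and over 13 alternatives of any kind it ranged from 4.11e-34 to 0.223. CELF2, a regulator of splicing, was at 0, 0.0322 and 0.573 CPM against 17.05 to 118 CPM (edgeR adjusted p = 0.0366). PVRL1, the cell adhesion molecule nectin-1, was at 1.32, 0.611 and 1.94 CPM against 13.04 to 49.5 CPM (edgeR adjusted p = 0.0166). For these 3 genes no H1299 library reached the lowest of the other lines, and UBE2E1 and PVRL1 had reads in every H1299 library. SDHA, a subunit of mitochondrial complex II, was the only housekeeping list gene of 28 called lower, against 0.296% of all tested genes. It was at 18.9, 34.2 and 15.4 CPM against 43.2 to 110 CPM (edgeR adjusted p = 0.0469). The call was lost with line as a random block (limma adjusted p = 0.902) and with library totals. SDHA has pseudogene copies, so its reads are uncertain in origin.

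The lineage lists separated H1299 from some lines and not from others. CDH1, the E-cadherin of epithelial junctions, had 0 reads in H1299 and in H1703, a mean of 940 CPM in CHAGO and of 1.54 CPM in CALU (edgeR adjusted p = 0.392). VIM, the mesenchymal intermediate filament vimentin, was at 1477, 1460 and 1133 CPM in H1299, on average 702 CPM in H1703, 0.66 CPM in CHAGO and 2239 CPM in CALU (edgeR adjusted p = 0.937). H1299 lay above H1703 and CHAGO and below CALU in each state. Of 31 epithelial genes tested 0 were called, against 0.994% of all tested genes. None of the 31 lay above or below all other lines (7.0% and 4.89% of all tested genes did). Without H1703 5 epithelial genes were called lower. The fitted median was −8.49, and −1.28 without CHAGO. Their median difference in the 3 states was −3.15, −3.12 and −2.95 log2 units, and the median fold change was 0.20 against H1703, −9.77 against CHAGO and −0.89 against CALU. KRT18, a keratin of simple epithelia, was at 21.8, 20.1 and 20.1 CPM in H1299, so keratin transcripts were present. Of 25 mesenchymal genes 0 were called, with state medians of −0.28, 0.18 and 0.17. The fitted median of the same list was −4.47, opposite in sign to the state medians of both TIC states, and without CALU it was 1.34 with 1 gene called higher.

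The squamous list summed to 351 to 479 CPM in the H1299 libraries and 533 to 5328 CPM in the others, and the lung list to 45.4 to 78.9 CPM against 19.9 to 210 CPM. TP63, the master factor of squamous cells, had 0, 0 and 0.132 CPM (at most 3 reads), and the keratins KRT5 and KRT14 had 0 reads. TP63 ranged from 0 to 45.1 CPM in the other lines and was near 0 in H1703 too. SOX2, a factor of airway stem cells that is amplified in many squamous lung cancers, was at 8.07, 38.7 and 6.08 CPM against 0 to 16.99 CPM (edgeR adjusted p = 0.625). NKX2-1, the factor of lung adenocarcinoma and alveolar cells, had 0 reads in H1299. Of 26 squamous genes 0 were called (state medians −1.96, −2.46 and −3.04), and of 8 lung genes 0 (0.53, −0.39 and 1.17). Markers of other cell types were examined as well. The fibroblast list summed to 16.97 to 20.06 CPM in the H1299 libraries and 84.98 to 3113 CPM in the others, and the endothelial list to 0.74 to 4.32 CPM against 0.0896 to 57.0 CPM, with 0 of 13 and 0 of 8 tested genes called. The leukocyte list summed to 264 to 529 CPM against 8.65 to 808 CPM, nearly all of it CD68, a protein of lysosomes, at 263, 529 and 522 CPM. PTPRC, which defines leukocytes, had 0 reads in H1299.

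Of 32 HOX genes tested, which give cells their position along the body axis, 0 were called and 6 lay above all 3 other lines in each state, 0 below, against 7.0% above and 4.89% below over all tested genes. HOXB9 was at 37.4, 24.4 and 62.8 CPM against 0.0264 to 5.99 CPM (edgeR adjusted p = 0.11). HOXB7 was at 25.9, 47.2 and 69.3 CPM against 0 to 9.34 CPM (edgeR adjusted p = 0.317), and the other 4 were HOXB2, HOXB4, HOXB8 and HOXC4. Of 47 lineage factors 1 was called higher and 1, FOXF2, lower, against 0.699% and 0.296% of all tested genes. The FOXF2 call was lost with line as a random block (limma adjusted p = 0.504). All these HOX genes but HOXC4 lie in the HOXB cluster, and none passed the test. Of 18 cell cycle inhibitors and RB genes 0 were called.

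**Figure D2:**
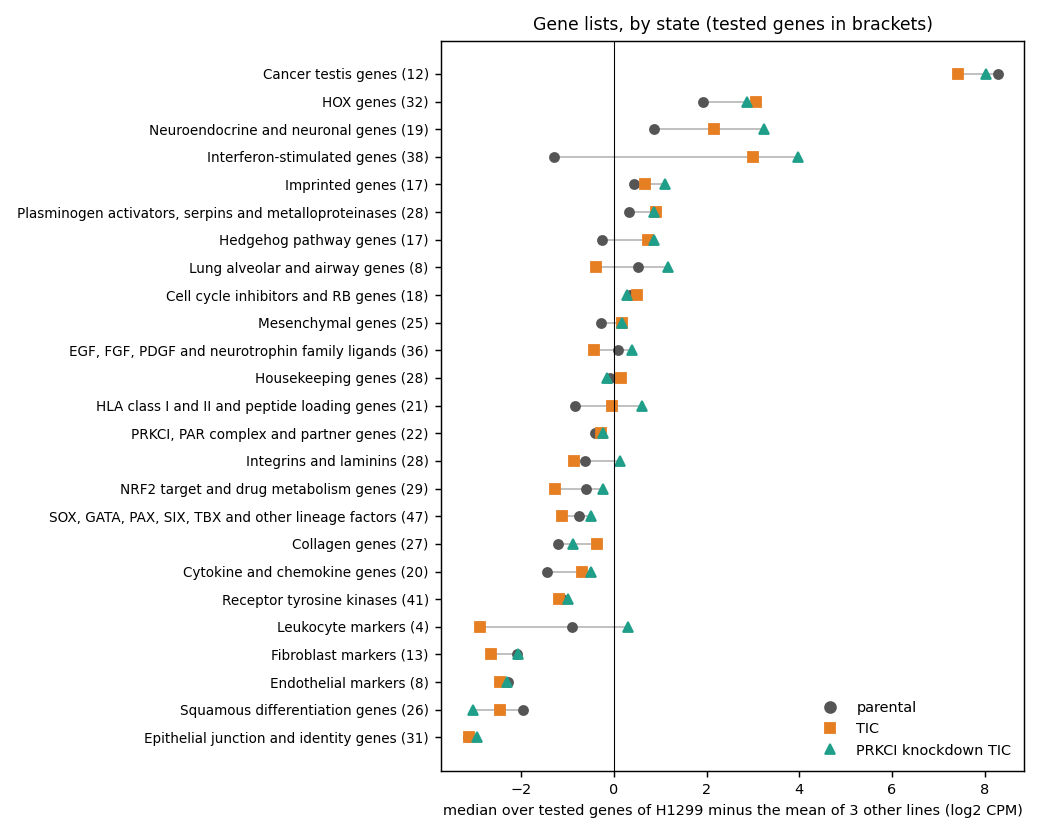
Median over the tested genes of each list shown of the H1299 level minus the mean of the 3 other lines (log2 CPM, horizontal axis), 1 point per state, with the number of tested genes in brackets. The cancer testis medians of 7.42 to 8.29 lie farthest to the right, and the interferon list spans −1.29 to 3.97. Cancer testis genes silent in the other lines were tested only through their H1299 reads.

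HHAT, the acyltransferase that attaches palmitate to Hedgehog ligands, was the member of the Hedgehog list that set H1299 apart. It was at 18.5, 70.7 and 20.3 CPM in parental cells, TICs and knockdown TICs, against 1.01 to 7.63 CPM (median 2.82) in the other libraries. The 3 H1299 libraries were all above the highest of the other 9, and the H1299 TIC library stood above both other H1299 libraries. The TIC library was also the highest of its line elsewhere. In the same order HHAT was at 1.01, 2.82 and 1.43 CPM in H1703, 1.90, 7.63 and 1.56 CPM in CHAGO, and 4.76, 6.56 and 3.50 CPM in CALU. H1299 exceeded the others by 3.26 log2 units (standard error 0.52, edgeR adjusted p = 0.0182), 4.21 against H1703, 3.37 against CHAGO and 2.59 against CALU. The call was lost without the H1299 parental (edgeR adjusted p = 0.151), TIC (0.298) or knockdown library (0.227), without CHAGO (0.0928) and in the random-block fit (limma adjusted p = 0.132), in a range of 5.85e-08 to 0.298 over 13 alternatives. Of 17 tested genes of the list, 1 was called higher and 0 lower, against 0.699% and 0.296% of all tested genes. PTCH1, the Hedgehog receptor, was at 37.9, 72.0 and 22.2 CPM against 5.55 to 29.4 CPM (edgeR adjusted p = 0.402). GLI2, an activator of the pathway, was at 0.026, 0 and 0.661 CPM against 0.12 to 20.1 CPM (edgeR adjusted p = 0.369), below the other lines in every state. GLI1, both target and effector, had 0, 0.997 and 0 CPM, and SHH had 0 reads in every library.

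PRKCI was lower in the H1299 knockdown library than in the other H1299 libraries, as its label says. It was at 309 CPM in parental cells, 198 CPM in TICs and 25.8 CPM in knockdown TICs, within the 23.2 to 608 CPM of the other lines (edgeR adjusted p = 0.55). Of 22 tested genes of PRKCI, the PAR complex and partners 0 were called, with state medians of −0.41, −0.28 and −0.24. INADL, a PDZ scaffold of the apical Crumbs complex, lay below the other lines in each state at 26.4, 30.8 and 40.7 CPM against 44.3 to 275 CPM, as did PARD6G, at 0.623, 0 and 0 CPM against 0.224 to 6.69 CPM. Neither passed in edgeR (adjusted p = 0.275 and 0.324).

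Of 38 interferon-stimulated genes tested, HERC5, the ligase that attaches ISG15 to new proteins, was called higher and 0 were called lower. Over all tested genes 0.699% were called higher and 0.296% lower. In every state 4 of the 38 lay above all other lines (7.0% of all tested genes did). The call of HERC5 was lost with line as a random block (limma adjusted p = 0.663) and held in 5 of 13 alternatives. The median difference was −1.29 log2 units in parental cells, 2.998 in TICs and 3.97 in knockdown TICs. HERC5 was at 68.9, 244 and 551 CPM in H1299 against 22.1 to 72.8 CPM (log2 fold change 2.61, standard error 0.48, edgeR adjusted p = 0.0347). IFIH1, the RNA sensor MDA5, was at 118, 639 and 1017 CPM against 5.78 to 84.8 CPM (edgeR adjusted p = 0.0885). IFIT1, which binds viral RNA, was at 3.22, 243 and 493 CPM against 0.806 to 43.5 CPM (edgeR adjusted p = 0.187). OAS3, an RNA-activated synthetase, was at 32.6, 323 and 588 CPM against 27.1 to 101 CPM (edgeR adjusted p = 0.136). In parental cells H1299 lay among the other lines for IFIT1 and below all 3 for OAS3, while in both TIC states it lay above them for both genes. The summed level of the list was 752, 5825 and 9228 CPM in the 3 H1299 libraries and 523 to 2277 CPM in the other 9.

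**Figure D3:**
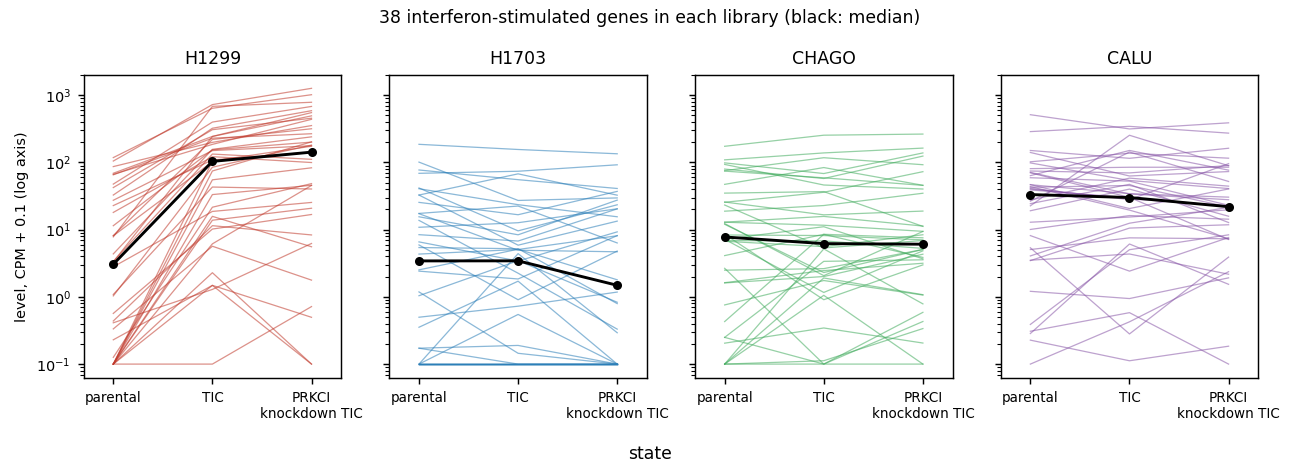
Level of 38 interferon-stimulated genes in each library (CPM + 0.1, log axis), 1 thin line per gene, by line (panels) and state (horizontal axis), with the median in black. The median went from 2.96 CPM in H1299 parental cells to 104 CPM in TICs and 142 CPM in knockdown TICs, and stayed between 1.39 and 33.2 CPM in the other lines.

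Whether the distance of H1299 from the other lines differed between states was tested with a state by H1299 interaction. edgeR called 0 genes (0%), with 104 at an unadjusted p under 0.05 against 744 from uniform p-values, limma voom called 0 (60 at an unadjusted p under 0.05) and DESeq2 called 14. Each H1299 state has 1 library, so the spread in this test comes from the other lines. None of these fits had a term for line, so stable differences between H1703, CHAGO and CALU entered that spread. A lack of calls therefore cannot show that the distance of H1299 was the same in each state. OAS3 had an interaction of 4.51 log2 units in TICs and 5.58 in knockdown TICs, each against parental cells (edgeR unadjusted p = 0.000287, adjusted p = 1), and was among the 14 of DESeq2. MYH11, a smooth muscle myosin, was at 21.5 CPM in H1299 parental cells, 0.0644 CPM in TICs and 0.0441 CPM in knockdown TICs, against 1.37 to 4.03 CPM in the other lines. BCL2, the inhibitor of apoptosis, was at 10.8, 0.0322 and 0.441 CPM against 6.20 to 32.9 CPM. MYH11 was above the other lines in parental cells and below them in both TIC states, and BCL2 was below them in all 3. Both were among the 14 and neither passed in edgeR (adjusted p = 1).

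Chromosomes 19 and 8 held the most genes called higher in H1299. Of 96 genes called higher with a place in the RefSeq order (GRCh38.p14), 26 (27.1%) lie on chromosome 19, which holds 6.83% of the tested genes, and 21 (21.9%) on chromosome 8, which holds 3.34%. Of the 41 called lower, 0 lie on either. Windows of 50 neighbouring tested genes, a size chosen after the data were seen, were used to locate these genes. Over 275 windows the median number of genes with H1299 above all other lines in each state was 2. It was 31 in the window from CLIP3 to MAP4K1 on chromosome 19, with 8 of them called and 0 genes below. It was 30 in the window from GGH to TPD52 on chromosome 8, with 10 called and 0 below. The median over all 50 genes of the chromosome 19 window was 2.23, 2.22 and 2.37 log2 units above the other lines in parental cells, TICs and knockdown TICs, and that of the chromosome 8 window 1.77, 1.81 and 1.95. The window with most genes below the other lines, 16, ran from PLEKHG4B to BASP1 on chromosome 5, with medians of −0.94, −0.91 and −1.34.

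Several called genes of chromosomes 19 and 8 had reads in every library of every line. The examples were named after their values were seen and do not all lie in the windows above. LSM14A, an RNA-binding protein of processing bodies on chromosome 19, was at 1731, 1793 and 1791 CPM against 268 to 578 CPM (log2 fold change 2.07, standard error 0.28, edgeR adjusted p = 0.00997), and it was also called with the line as a random block. HNRNPUL1, a nuclear ribonucleoprotein, was at 1619, 1595 and 1376 CPM against 263 to 590 CPM (edgeR adjusted p = 0.00814). CEBPG, a bZIP factor of the amino acid response, was at 919, 450 and 546 CPM against 90.6 to 234 CPM (edgeR adjusted p = 0.0129). XRCC1, the scaffold of single-strand break repair, was at 368, 318 and 116 CPM against 12.98 to 103 CPM (edgeR adjusted p = 0.0432). On chromosome 8, COPS5, the catalytic subunit of the COP9 signalosome, was at 199, 114 and 191 CPM against 24.4 to 70.1 CPM (edgeR adjusted p = 0.0176). TERF1, a protein of telomeres, was at 118, 123 and 127 CPM against 29.9 to 67.9 CPM (edgeR adjusted p = 0.0281). The highest of the other libraries lay below the lowest H1299 library for each of these 6 genes. HNRNPUL1, CEBPG, XRCC1, COPS5 and TERF1 were not called with line as a random block (limma adjusted p = 0.0742 to 0.613). Of 511 tested zinc finger genes with ZNF or ZFP symbols, many of which sit in clusters on chromosome 19, 10 were called higher and 0 lower, and 71 lay above and 25 below the other lines. Over all tested genes 0.699% were called higher, 7.0% lay above and 4.89% below.

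**Figure D4:**
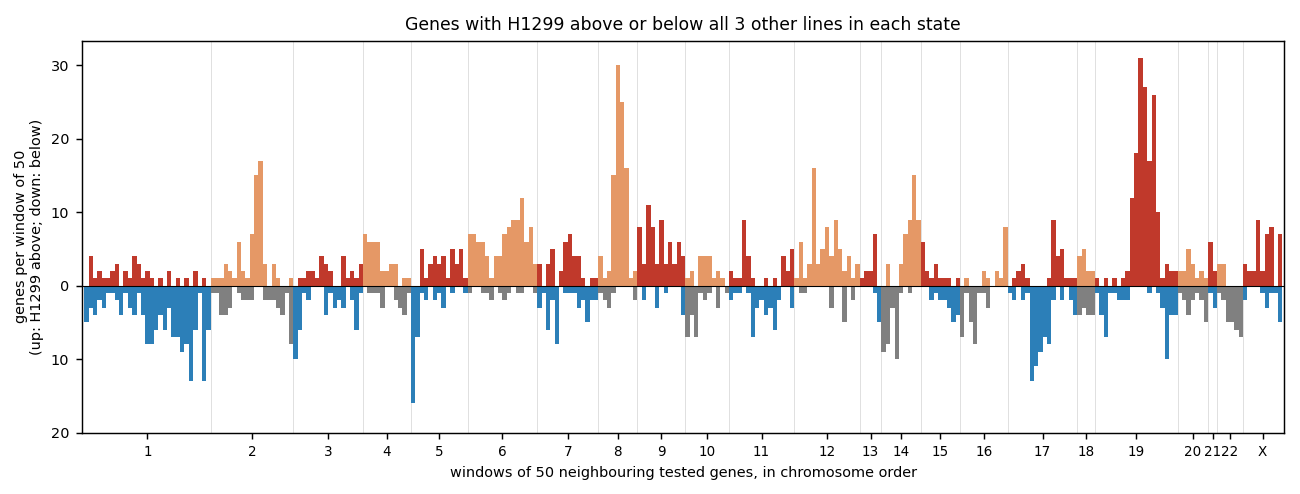
Number of genes per window of 50 neighbouring tested genes (vertical axis) with H1299 above (up) or below (down) all 3 other lines in each state, along the chromosomes (horizontal axis, shades alternate by chromosome). The tallest bars are 31 genes on chromosome 19 and 30 on chromosome 8, against a median of 2.

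H1299 was also set against each line alone. Across genes, log2 CPM correlated at 0.883 to 0.905 between H1299 libraries, at 0.761 to 0.812 between H1299 and H1703, at 0.737 to 0.779 with CALU and at 0.696 to 0.75 with CHAGO (9 library pairs each, which share libraries and depth). edgeR called 2316 genes against H1703 (15.6%, 1422 higher), 3343 against CHAGO (22.5%, 1643 higher) and 2318 against CALU (15.6%, 1115 higher). DESeq2 called 3938 against H1703 and 3840 against CALU. These 3 contrasts share the H1299 libraries and take the spread within lines, so they call many more genes than the comparison with all other lines. The remaining lists gave few calls. Of 36 growth factor ligands 1, PDGFD, a platelet-derived growth factor, was called higher and 0 lower, against 0.699% and 0.296% of all tested genes. PDGFD was at 2.70, 7.40 and 5.47 CPM against 0 to 0.358 CPM (edgeR adjusted p = 0.0432). The PDGFD call was lost with line as a random block (limma adjusted p = 0.333) and held in 5 of 13 alternatives. PDGFD was tested only because of its H1299 reads and could only come out higher, so its edgeR value is a description. In all, 20 of 26 lists had no called member, among them receptor tyrosine kinases (41 tested), collagens (27), integrins and laminins (28), NRF2 targets (29), imprinted genes (17), HLA genes (21), cytokines (20) and serpins and proteases (28). Only 0.994% of all tested genes were called, so a list of such size with no call does not show that H1299 was like the other lines. EGFR, a receptor often mutated in lung cancer, lay below the other lines in each state at 138, 107 and 93.5 CPM against 150 to 866 CPM, without passing (edgeR adjusted p = 0.211).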

How the data were processed

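The 12 RNA-seq libraries were used, 1 per line and state. Per the labels' protocols Qiagen RNeasy and NuGEN kits served for RNA and libraries. The submitters' processing notes name CASAVA 1.4, TopHat 1.4, HTSeq 0.5.3p3 and hg19. The authors deposited raw read counts per gene for 22506 genes. They also deposited a table of mode-normalized values, read here as a score and used only as an alternative. Strand use and counting mode: not given in the sources used here. No interval here covers more than counting error.

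Counts were filtered (14882 genes kept), TMM-scaled and tested with edgeR 4.0.16 (quasi-likelihood, state as a block, Benjamini-Hochberg). DESeq2 1.42.0 and limma 3.58.1 in R 4.3.3 were alternatives, with other scalings, filters and left-out libraries. The steps were also run on simulated counts, drawn independently for each library with no differences between the other lines. In the data the fitted correlation within a line was 0.62, so that run does not show how the calls hold here. Named genes were 5 fixed genes, the 14 called genes per direction with the largest smallest gap, called list members, leading interaction genes and genes on in 1 side only. List members that were not called were named after their values were seen. The comparison and lists were chosen with earlier results of these data known. Some genes and 1 list are not reported here.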

Additional observations from a re-analysis of the deposited data

How the results depend on the processing

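The direction of most named values held, while the number of calls did not. Against 148 genes called and set apart, DESeq2 called 1557 (987 set apart), limma voom 387 (369 set apart), limma voom with line as a random block 39 (39 set apart), a fit of state and line 2400 (1208 set apart), a fit with no state term 233 (233 set apart), mode-normalized values 348 (346 set apart) and an adjusted p under 0.01 left 22 (22 set apart). Higher against lower calls were 520 against 1037 in DESeq2, 355 against 32 in limma voom, 39 against 0 with the random block and 179 against 169 in mode-normalized values. Leaving out a library or a line gave 1 to 296 genes called and 1 to 296 set apart. DESeq2 size factors gave 156, library totals 165 and the other filters 104 to 140 calls. The state by H1299 interaction had 14 genes in DESeq2. Against H1703 DESeq2 called 3938 genes, and against CALU DESeq2 called 3840 and limma voom 3517. For VIM, leaving out a library or line gave log2 fold changes from −0.037 (without CHAGO) to 1.94. For MYH11 the value was −1.38 in limma voom and −1.89 in mode-normalized values, and −5.77 (without the H1299 parental library) to 2.08 when a library or line was left out. The cause of these changes was not tested. State entered the main fit as a block, and the fit without it is the one with no state term above. The 21.2 M reads of the H1299 knockdown library limit what a count of 0 can show there.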
